A study of Mus musculus with 5 samples.

Results

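Aminoacyl-tRNA synthetases were followed in ID8, a line derived from mouse ovarian surface epithelium whose cells grow as tumours in the peritoneum and cause ascites. The members were 37 named genes: 20 cytosolic synthetases, 14 mitochondrial synthetases and 3 scaffold proteins. A gene counted as measured when at least 1 probe set of the Affymetrix mouse array was annotated to it alone, and its probe set with the highest mean was used. By this rule 28 members were measured among 12394 genes: 18 cytosolic enzymes, 7 mitochondrial enzymes and all 3 scaffolds. The cytosolic enzymes Dars and Mars, and the mitochondrial enzymes Aars2, Lars2, Mars2, Nars2, Vars2, Wars2 and Yars2, were not matched and were not analysed here.

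Both groups were ID8 cells in DMEM. In 1 group (3 arrays, replicates 1, 2 and 3) the medium held 10% fetal bovine serum (FBS). In the other (2 arrays, replicates 2 and 3) it held 10% ascites fluid from mice bearing ID8 tumours, with a culture time of 7 days. A culture time for the FBS group, and the presence or absence of serum beside the ascites fluid, cannot be read with certainty from the labels. Separate cultures behind the replicates are not stated, so p-values describe array-to-array spread, which may be technical. ID8 is a single transplanted line, and how many mice gave the ascites is not given in the sources used here.

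Each synthetase joins 1 amino acid to its matching tRNAs, and so supplies the ribosome with charged tRNA. Cytosolic and mitochondrial enzymes are in most cases made by separate nuclear genes, and the mitochondrial ones serve translation inside the organelle only. Some cytosolic enzymes are held with the scaffolds AIMP1, AIMP2 and EEF1E1 in the multi-tRNA synthetase complex. When amino acids run short, uncharged tRNA activates the kinase GCN2, and the transcription factor ATF4 is then made and acts through composite C/EBP-ATF sites in its target genes. Many cytosolic synthetase genes are known ATF4 targets.

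Such composite sites were looked for as the letters TGATGNAA, on both strands, in RefSeq promoter windows of mouse build GRCm38.p6. Each window ran from 250 bases before to 50 bases after the gene start. Of the 28 measured members, 19 had a window. A match was found in 5 of 11 cytosolic members (Aars, Gars, Iars, Tars and Yars), in 0 of 5 mitochondrial members and in 0 of 3 scaffolds. The letters stood in 3.97% of all 32851 windows, in 3.12% of measured genes with a window and in 7.87% of those that rose. The windows around these matches are shown because they carry the element through which ATF4 is known to act, with Asns, asparagine synthetase, a well-studied ATF4 target, as a reference. Capitals mark the match, and each sequence is read 5′ to 3′ on the strand of the gene.
Aars (chr8:111033701-111033760, plus strand): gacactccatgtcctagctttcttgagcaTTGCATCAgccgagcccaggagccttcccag
Gars (chr6:55037941-55038000, plus strand): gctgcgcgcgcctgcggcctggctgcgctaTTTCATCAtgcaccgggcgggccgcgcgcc
Tars (chr15:11399659-11399718, minus strand): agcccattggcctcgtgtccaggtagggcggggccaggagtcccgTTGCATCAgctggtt
Iars (chr13:49682126-49682155, plus strand): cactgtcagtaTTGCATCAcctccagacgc
Yars (chr4:129189895-129189924, plus strand): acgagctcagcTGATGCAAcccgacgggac
Asns (chr6:7693210-7693269, minus strand): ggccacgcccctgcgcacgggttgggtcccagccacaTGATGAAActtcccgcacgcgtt

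The match lay 112 bases before the gene start in Aars, 30 bases before it in Gars and 15 bases before it in Tars. It lay 7 bases past the start in Iars and 3 bases past it in Yars, and Aars held another match 9 bases past the start. In Aars, Gars, Iars and Tars the letters were on the strand opposite to the gene. In Yars and in Asns, 23 bases before its start, they were on the strand of the gene. An E-box (CACGTG, which reads the same on both strands) was found in Aars, Farsb, Iars, Tars and the mitochondrial Ears2, which is 5 of 19 measured members with a window. The same letters stood in 7.15% of all windows, in 10.8% of measured genes with a window and in 14.2% of those that rose. No E-box overlapped a composite match. These matches describe letters in a window and do not show binding.

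**Figure D1:**
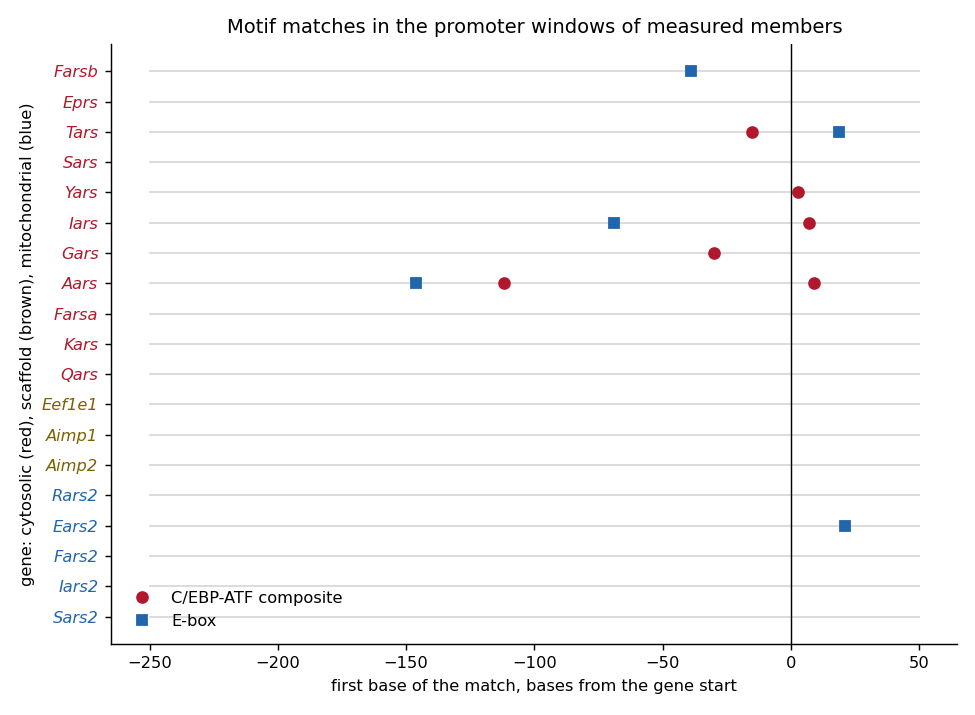
Positions of the composite C/EBP-ATF letters (red circles) and E-boxes (blue squares) in the promoter windows of the 19 measured members that had one. The horizontal axis gives bases from the gene start (vertical line), the grey lines span the window, and the 5 genes with red circles are cytosolic enzymes.

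Cytosolic synthetase transcripts were higher in ascites as a group, while the mitochondrial enzymes moved little. Of 18 cytosolic enzymes 15 were higher in ascites, 10 rose and 0 fell at an adjusted p below 0.05 (limma, Benjamini-Hochberg over all genes). Of all 12394 genes 2.69% rose, 2.59% fell and 50.5% had a change above 0. Counting every measured member, 11 of 28 passed, beside 5.28% of all genes. The median log2 change, ascites minus FBS, was 0.78 for the cytosolic enzymes, 0.79 for the 3 scaffolds and -0.04 for the 7 mitochondrial enzymes, beside 0.00 for all genes. Both ascites arrays lay above all FBS arrays in 14 cytosolic enzymes (18.6% of all genes), and below them in 1, Qars (19.4% of all genes), so that the groups did not overlap in 15 (38.0% of all genes). Among mitochondrial enzymes 0 passed, and 2 had an unadjusted p below 0.05 (24.3% of all genes did). In genes whose mean signal lay within the range of the mitochondrial members, 3.23% rose, and within the range of the cytosolic members 4.47% did. Of 10 markers of the ovarian epithelium itself 8 were lower in ascites and 2 fell (median -0.91), and their part in these results was not tested.

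The 11 member calls held when FBS replicate 3 was left out, but not when FBS replicate 1 or FBS replicate 2 was. Leaving out FBS replicate 1, FBS replicate 2, ascites replicate 2 or ascites replicate 3, each in turn, left 0 members and 0 genes past the threshold, and so did averaging FBS replicates 1 and 2, which differed by an SD of only 0.117 over genes. In these fits the 11 members were all still higher in ascites, by 0.67 to 1.77 on the log2 scale, with adjusted p between 0.0891 and 0.212. FBS replicate 3 lay farther from both of them (SD 0.427 over genes), and without it 18 members passed, where 20.1% of all genes did and 9.17% rose. The arrays carry no detection call, and their normalisation by the submitters could hide a change in total RNA per cell. Fewer cells of a type and less RNA per cell cannot be told apart in such samples.

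**Figure D2:**
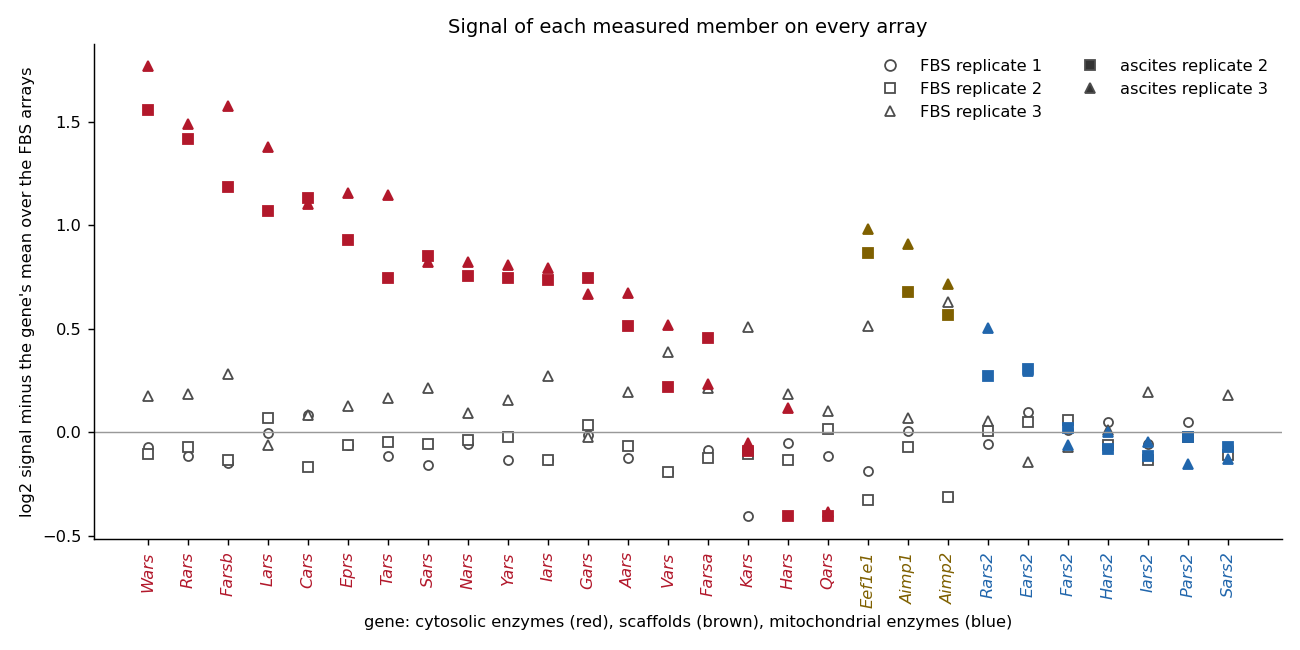
Log2 signal of the 28 measured members on each array (points), relative to the gene's mean over the FBS arrays, with open symbols for FBS and filled symbols for ascites. Both ascites arrays lie above all FBS arrays for 14 of 18 cytosolic enzymes and for 2 of 7 mitochondrial enzymes, and the FBS replicate 3 triangles lie above the other FBS symbols for 15 cytosolic enzymes.

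Wars, which charges tRNA with tryptophan, had the largest change of the measured members. Its log2 signal was 9.82, 9.79 and 10.07 on the FBS arrays and 11.45 and 11.66 on the ascites arrays. Both ascites arrays lay far above every FBS array, and the FBS arrays lay close together. The change was 3.16-fold (1.66 on the log2 scale, SE 0.12, limma adjusted p = 0.0177), the 68th largest rise in value among all genes. Wars was read by 4 probe sets, whose changes ran from 1.24 to 1.84.

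Rars, the arginine enzyme and a member of the complex, read 11.57, 11.61 and 11.87 in FBS and 13.10 and 13.17 in ascites. The groups did not overlap, and the gap between them was several times the spread within either. It rose 2.74-fold (1.45, SE 0.11, limma adjusted p = 0.0184). Lars, the leucine enzyme, which also acts as a leucine sensor for mTORC1, read 10.95, 11.02 and 10.89 in FBS and 12.02 and 12.33 in ascites. For Lars, FBS replicate 3 was the lowest array, unlike most cytosolic members. Its rise was 2.33-fold (1.22, SE 0.11, limma adjusted p = 0.0218). Eprs, a fused enzyme that charges both glutamate and proline tRNAs, read 11.43, 11.43 and 11.62 in FBS and 12.42 and 12.65 in ascites. It rose 2.06-fold (1.04, SE 0.11, limma adjusted p = 0.0245), and its 3 probe sets changed by 0.91 to 1.12.

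Phenylalanine tRNA is charged in the cytosol by an enzyme of 2 kinds of subunit, and their transcripts changed by different amounts. Farsb, the beta subunit, read 10.17, 10.18 and 10.60 in FBS and 11.50 and 11.89 in ascites, and rose 2.60-fold (1.38, SE 0.20, limma adjusted p = 0.0419). Farsa, the alpha subunit, read 10.01, 9.97 and 10.31 in FBS and 10.55 and 10.33 in ascites. The lower ascites value of Farsa lay only just above the highest FBS value, and its change of 0.34 (95% confidence interval -0.04 to 0.72, limma adjusted p = 0.244) did not pass. The change of Farsb exceeded that of Farsa by 1.04 on the log2 scale. An exact two-sided permutation test of this difference, a comparison chosen after the values were seen, gave p = 0.1, the smallest that 3 against 2 arrays allow.

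Cars, the cysteine enzyme, read 8.88, 8.63 and 8.88 in FBS and 9.93 and 9.90 in ascites. It rose 2.17-fold (1.12, SE 0.10, limma adjusted p = 0.0216). The dimmer probe set of Cars, with a mean of 7.03, changed by only 0.24. Sars, the serine enzyme, read 10.98, 11.08 and 11.35 in FBS and 11.99 and 11.96 in ascites, and rose 1.79-fold (limma adjusted p = 0.045). Nars, the asparagine enzyme, was among the least variable members, with 12.40, 12.42 and 12.55 in FBS and 13.21 and 13.28 in ascites. Its rise was 1.73-fold (0.79, SE 0.07, limma adjusted p = 0.0216). Yars, the tyrosine enzyme, read 9.77, 9.88 and 10.06 in FBS and 10.65 and 10.71 in ascites, and rose 1.71-fold (limma adjusted p = 0.0373).

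Gars, the glycine enzyme, is a gene that serves both compartments, since cytosolic and mitochondrial forms come from 1 gene. It read 12.22, 12.27 and 12.21 in FBS and 12.98 and 12.90 in ascites, with a tighter FBS spread than any other cytosolic member. It rose 1.63-fold (0.71, SE 0.06, limma adjusted p = 0.0185). Kars, the lysine enzyme, serves both compartments as well but did not pass. Its arrays read 10.58, 10.88 and 11.49 in FBS and 10.89 and 10.93 in ascites, so both ascites values fell inside the FBS range. The change of Kars was -0.07 (95% confidence interval -0.86 to 0.71), and 0.18 without FBS replicate 3, its highest array.

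Another 3 cytosolic enzymes were higher on both ascites arrays without passing. Tars, the threonine enzyme, read 11.30, 11.37 and 11.58 in FBS and 12.16 and 12.56 in ascites, a change of 0.94 (SE 0.16, limma adjusted p = 0.0544). Iars, the isoleucine enzyme, read 11.20, 11.20 and 11.61 in FBS and 12.07 and 12.13 in ascites, a change of 0.76 (limma adjusted p = 0.0723). Aars, the alanine enzyme, read 11.62, 11.68 and 11.94 in FBS and 12.26 and 12.42 in ascites, a change of 0.59 (limma adjusted p = 0.0773). In all 3 genes FBS replicate 3 was the FBS array nearest to ascites. Without it Tars (1.02, limma adjusted p = 0.0406), Iars (0.90, 0.00848) and Aars (0.69, 0.0219) passed. Tars passed as well under quantile normalisation (limma adjusted p = 0.0405), median centring (0.0328), a filter on dim genes (0.0398) and array weights (0.0134). Under probe set means Tars passed only narrowly, with a limma adjusted p of 0.05 after rounding. Iars passed under centring (0.0494) and, like Aars (0.0136), with array weights (0.00944). With these 5 settings the count of risen cytosolic enzymes was 11 to 14 in place of 10.

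The 5 members whose windows held the composite letters, Aars, Gars, Iars, Tars and Yars, thus changed by 0.59 to 0.94, and only Gars and Yars passed with all arrays. The cytosolic members whose windows lacked them were Farsb (1.38), Eprs (1.04) and Sars (0.84), which rose, and Farsa (0.34), Kars (-0.07) and Qars (-0.40), which did not pass. Promoter windows were not matched for Wars, Rars, Lars, Cars, Nars, Hars and Vars.

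Qars, the glutamine enzyme, was lower on both ascites arrays. It read 10.67, 10.80 and 10.89 in FBS and 10.38 and 10.40 in ascites. The change was -0.40 (SE 0.08, limma adjusted p = 0.0752), which did not pass, and without FBS replicate 3 it was -0.35 with a limma adjusted p of 0.0495. Of its 4 probe sets 3 moved down and the dimmest moved up, over a range of -0.40 to 0.18. Hars, the histidine enzyme, read 11.13, 11.05 and 11.37 in FBS and 10.78 and 11.30 in ascites. The ascites arrays of Hars differed from each other by 0.52, so that its change of -0.14 (95% confidence interval -0.67 to 0.39) became 0.12 without ascites replicate 2. Vars, the valine enzyme, read 10.78, 10.78 and 11.36 in FBS and 11.19 and 11.49 in ascites, with FBS replicate 3 between the ascites arrays (change 0.37, 95% confidence interval -0.26 to 0.99).

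The scaffold Aimp1, whose protein is also cut to a secreted cytokine, read 10.91, 10.83 and 10.97 in FBS and 11.58 and 11.81 in ascites. It rose 1.73-fold (0.79, SE 0.10, limma adjusted p = 0.0323). Eef1e1, also called AIMP3, read 11.14, 11.00 and 11.84 in FBS and 12.19 and 12.31 in ascites, a change of 0.92 (limma adjusted p = 0.151). Aimp2 read 10.32, 10.32 and 11.26 in FBS and 11.20 and 11.35 in ascites, so FBS replicate 3 overlapped the ascites arrays (change 0.64, limma adjusted p = 0.361). Both Eef1e1 (1.18, limma adjusted p = 0.0122) and Aimp2 (0.95, 0.0125) passed without FBS replicate 3. That array lay above the mean of the other FBS arrays by 0.94 in Aimp2 and by 0.77 in Eef1e1.

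Enzymes inside and outside the complex were both among those that rose. Of the 6 measured enzymes of the complex (Eprs, Iars, Kars, Lars, Qars and Rars) 3 rose, with a median change of 0.90, and of the 12 enzymes outside it 7 rose, with a median of 0.78. The complex held both the second largest change of a cytosolic enzyme, Rars, and the lowest, Qars. By the structural class of the catalytic core, 5 of 8 class 1 enzymes rose (median 0.95) and 4 of 9 class 2 enzymes did (median 0.71), with Eprs, which has a core of each class, counted in neither. These are counts over members, and the differences between the subgroups were not tested.

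**Figure D3:**
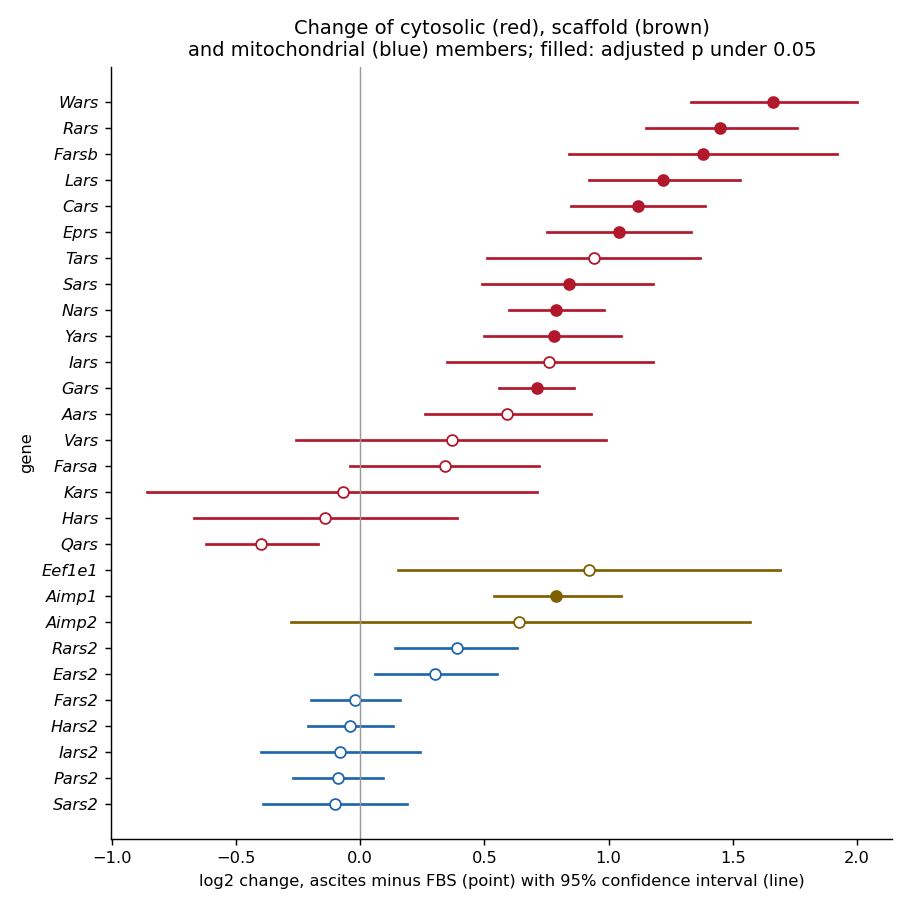
Log2 change of each measured member, ascites minus FBS, with its 95% confidence interval from limma, for cytosolic enzymes (red), scaffolds (brown) and mitochondrial enzymes (blue). Filled points mark the 11 members with an adjusted p below 0.05, of which 10 are cytosolic enzymes and 1 is Aimp1.

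The 7 mitochondrial enzymes had changes from -0.10 to 0.39, and 5 of them had overlapping groups. Rars2, the mitochondrial arginine enzyme, read 9.77, 9.83 and 9.88 in FBS and 10.10 and 10.33 in ascites, with both ascites arrays above the FBS arrays. Its change of 0.39 (95% confidence interval 0.14 to 0.63, limma adjusted p = 0.0915) did not pass. Ears2, the mitochondrial glutamate enzyme, which also loads glutamate on glutamine tRNA, read 7.84, 7.79 and 7.60 in FBS and 8.05 and 8.04 in ascites. Its change was 0.30 (limma adjusted p = 0.143), and without FBS replicate 3, its lowest array, 0.23 with a limma adjusted p of 0.0443.

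The other 5 mitochondrial enzymes had changes close to 0. Fars2 (phenylalanine) read 9.22, 9.27 and 9.14 in FBS and 9.23 and 9.15 in ascites (95% confidence interval of the change -0.20 to 0.16). Hars2 (histidine) read 8.31, 8.20 and 8.27 in FBS and 8.18 and 8.26 in ascites (-0.21 to 0.13). In both genes the arrays of the groups were interleaved, and their changes of -0.02 and -0.04 turned positive under quantile normalisation (0.02 and 0.03). Pars2 (proline) read 8.05, 7.98 and 7.98 in FBS and 7.98 and 7.85 in ascites (-0.27 to 0.09). Iars2 (isoleucine) read 8.45, 8.37 and 8.70 in FBS and 8.39 and 8.46 in ascites (-0.40 to 0.24). Sars2 (serine) read 6.68, 6.64 and 6.93 in FBS and 6.68 and 6.62 in ascites (-0.39 to 0.19). A change as large as the cytosolic median of 0.78 lay outside each of these 5 intervals. The mean signals of the mitochondrial members ran from 6.71 to 9.98 on this array, and the part of background in their small changes was not tested.

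Array by array, the cytosolic enzymes separated from the mitochondrial ones. The median deviation of the cytosolic enzymes from their own FBS means was -0.11, -0.07 and 0.18 on FBS replicates 1, 2 and 3, and 0.75 and 0.81 on ascites replicates 2 and 3. For the mitochondrial enzymes the same medians were 0.01, -0.02 and 0.01 in FBS and -0.02 and -0.05 in ascites. The cytosolic median minus the mitochondrial median was -0.12, -0.05 and 0.17 in FBS and 0.77 and 0.86 in ascites. Both ascites arrays therefore lay above every FBS array in this difference, and FBS replicate 3 lay nearest to them.

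The contrast was also drawn within pairs of enzymes for the same amino acid, of which 8 had both genes measured. For each pair, the log2 signal of the cytosolic gene minus that of the mitochondrial gene was taken on every array and set against its mean in FBS. In ascites this difference was higher on both arrays than on any FBS array for 7 of 8 pairs, by only a narrow margin for Farsa and Fars2. Among single genes 18.6% had both ascites arrays above all FBS arrays, and the share among pairs of genes was not computed. Some pairs share a gene, since Eprs and Fars2 each stand in 2 of them, so the pairs are not independent.

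For serine, Sars minus Sars2 read -0.09, 0.05 and 0.03 in FBS and 0.92 and 0.95 in ascites, a difference of 0.94 on the log2 scale (SE 0.06). For isoleucine, Iars minus Iars2 read -0.08, 0.00 and 0.08 in FBS and 0.85 and 0.84 in ascites, a difference of 0.84 (SE 0.06). Although Iars alone did not pass, its FBS spread was largely shared by Iars2, and the difference between them varied little within a group. For arginine, Rars exceeded Rars2 by 1.06 (SE 0.10), since Rars2 was also somewhat higher in ascites. Farsb exceeded Fars2 by 1.40 (SE 0.29) and Farsa exceeded it by 0.36 (SE 0.19). On FBS replicate 3 Farsa minus Fars2 was 0.28, against 0.43 and 0.29 on the ascites arrays. Eprs exceeded Ears2 by 0.74 (SE 0.20) and Pars2 by 1.13 (SE 0.17). Histidine was the exception, with Hars minus Hars2 at -0.10 (SE 0.20) and arrays that overlapped. Exact two-sided permutation tests gave p = 0.1 for 6 pairs, 0.2 for Farsa and Fars2, and 0.7 for Hars and Hars2. Adjusted over the 8 pairs, these became 0.133, 0.229 and 0.7. With 3 against 2 arrays no pair could have gone below 0.1.

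**Figure D4:**
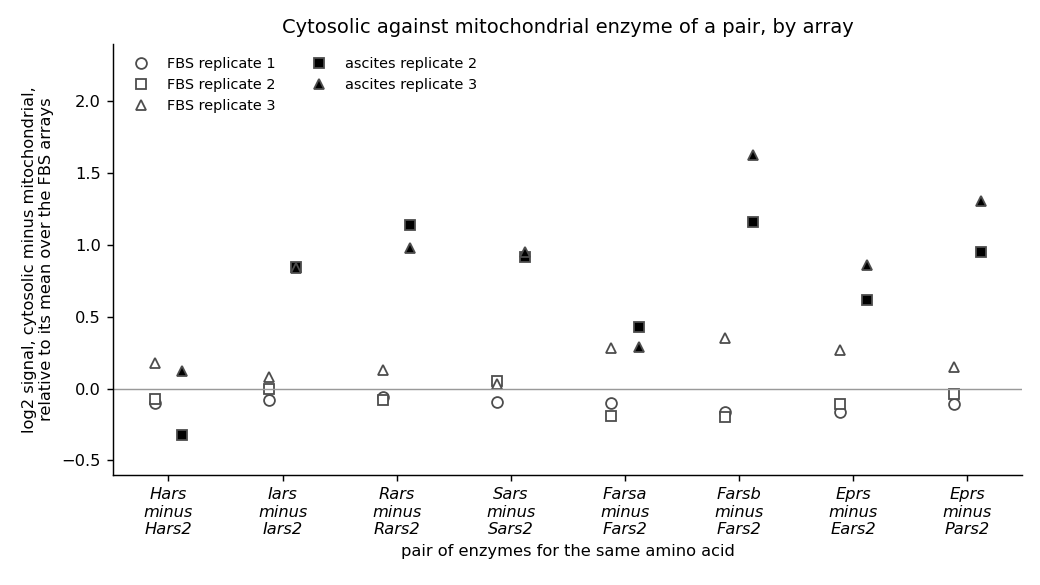
Log2 signal of the cytosolic enzyme minus that of the mitochondrial enzyme for the same amino acid, by array, relative to its mean over the FBS arrays (open symbols FBS, filled symbols ascites). The filled symbols lie above all open ones for 7 of 8 pairs, narrowly so for Farsa and Fars2, and for Hars and Hars2 they overlap.

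Other genes of tRNA handling and translation were mostly higher in ascites, but passed about as often as genes at large. Over 8 lists, 78 genes were measured, of which 2 rose and 0 fell, a share of 2.56% beside 2.69% of all genes, with a median change of 0.22. This count rested on FBS replicate 3. Without it 21 of the 78 rose, where 9.17% of all genes did, and with array weights, which gave that array the lowest weight, 22 did. With all arrays 59 of the 78 were higher in ascites, where 50.5% of all genes were. Both ascites arrays lay above all FBS arrays in 31 (18.6% of all genes) and below them in 7 (19.4%). In limma 29 had an unadjusted p below 0.05 (24.3% of all genes). Xpot, the export receptor that carries mature tRNA out of the nucleus, read 9.58, 9.39 and 9.72 in FBS and 11.00 and 10.93 in ascites. It rose 2.64-fold (1.40, SE 0.11, limma adjusted p = 0.0191), the only one of 18 measured genes of tRNA export and processing to pass with all arrays (4 rose without FBS replicate 3). The other gene that rose was Eif4ebp1, an inhibitor of cap-dependent translation initiation and a known ATF4 target, at 1.92-fold (limma adjusted p = 0.0158). Of 9 mitochondrial translation factors 0 passed and 3 had an unadjusted p below 0.05 in limma (24.3% of all genes). Without FBS replicate 3, 2 of them rose (9.17% of all genes). Tars2, a mitochondrial enzyme outside the members, changed by 0.63 (SE 0.21, limma adjusted p = 0.169), more than any measured mitochondrial member.

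Known ATF4 targets that are not synthetases were set beside the members, as values from the same arrays. Of 18 measured, 17 were higher in ascites (50.5% of all genes) and 9 rose (2.69% of all genes), with a median change of 1.32. Eif4ebp1 was 1 of these 9, so it counts in both lists. Cebpb was the target that was lower, by -0.20 (limma adjusted p = 0.318), and it passed without FBS replicate 3 (-0.28, 0.0271). Asns rose 1.77-fold (12.28 ± 0.06, SD, n = 3, against 13.10 ± 0.07, SD, n = 2, limma adjusted p = 0.0185), a size like that of Gars or Nars. Atf5, a related transcription factor, rose 2.67-fold (limma adjusted p = 0.0156), and Cth, cystathionine gamma-lyase, rose 19.4-fold (limma adjusted p = 0.0158). In the median these targets were lower on FBS replicate 3 than on the other FBS arrays (-0.14, against 0.27 for the cytosolic enzymes).

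Among 8 measured genes of the GCN2 and ATF4 response and of kinases related to GCN2, 1 rose, beside 2.69% of all genes. Under the alternatives 0 to 3 rose. Impact, which restrains GCN2, rose 1.44-fold (0.53, SE 0.07, limma adjusted p = 0.0406). That call was lost with trended robust variances (limma adjusted p = 0.0561). It was also lost with the replicate block, with FBS replicates 1 and 2 averaged, and without FBS replicate 1 or FBS replicate 2. Atf4 itself changed by 0.45 (limma adjusted p = 0.102), and passed without FBS replicate 3 (0.52, adjusted p = 0.0412) and with array weights (0.0258). Eif2ak4, which encodes GCN2, changed by -0.14 (adjusted p = 0.692). Eif2ak3, the kinase PERK of the endoplasmic reticulum, changed by -0.56 (limma adjusted p = 0.0769). Both its ascites arrays lay below all FBS arrays, and it passed as lower with array weights (-0.49, limma adjusted p = 0.0241). Eif2ak1 changed by 0.02 and Eif2ak2 by -0.21. The feedback phosphatase subunit Ppp1r15a changed by 1.92 (adjusted p = 0.0653), with ascites arrays that differed by 0.99, and Ppp1r15b by 0.27. Ppp1r15a passed under quantile normalisation (limma adjusted p = 0.0432), centring (0.0345), the filter on dim genes (0.0447) and array weights (0.0212). Atf4 is regulated largely at translation, which these arrays do not measure.

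**Figure D5:**
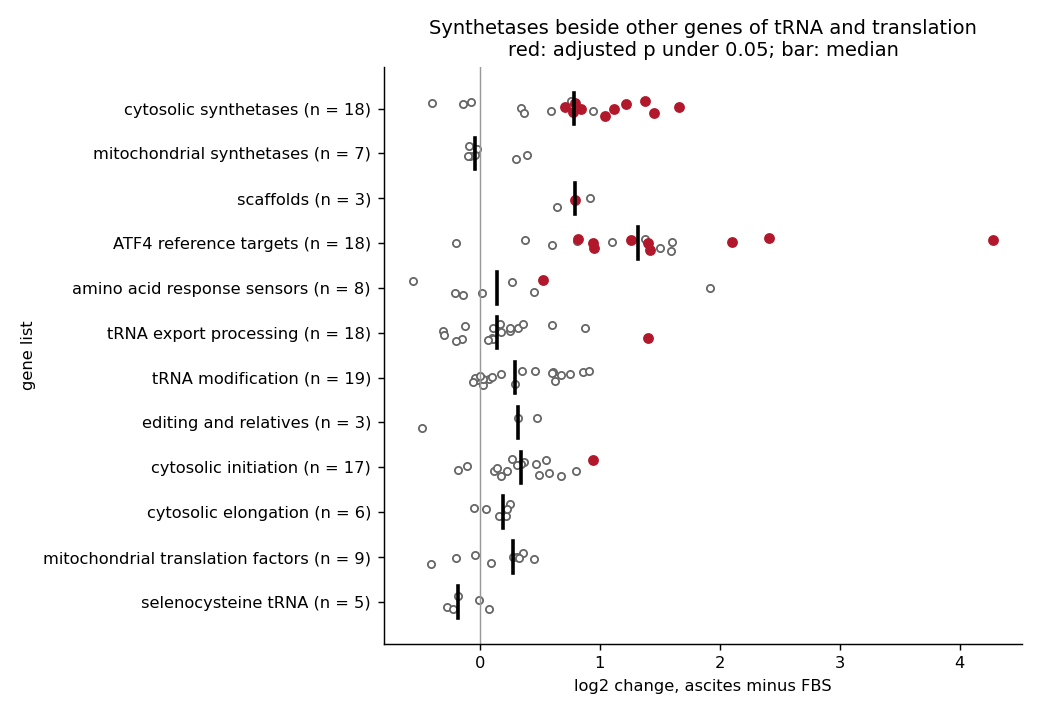
Log2 change, ascites minus FBS, of each gene (points) in the member groups and in other lists of tRNA and translation genes, with the median as a black bar. Red points passed at an adjusted p below 0.05, which 10 cytosolic synthetases and 9 ATF4 targets did, against 0 mitochondrial synthetases.

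The cells carried markers of the ovarian surface and its mesothelium-like epithelium, with high signals for Krt8, Krt18, Krt19, Wt1, Msln and Upk3b. Epcam, Cdh1 and Pax8 were dim. Of 10 such markers measured, 8 were lower in ascites, with a median change of -0.91, and 2 fell (2.59% of all genes did). Krt18, a keratin of simple epithelia, fell by 1.43 on the log2 scale (SE 0.19, limma adjusted p = 0.0361), and Krt19, another, fell by 0.88 (SE 0.13, limma adjusted p = 0.0428). Upk3b, the brightest marker, changed by -2.30 (SE 0.74, limma adjusted p = 0.16), and Krt7 by -2.00 (SE 0.86, limma adjusted p = 0.26). On FBS replicate 3 these markers differed from the other FBS arrays by a median of -0.38. Without it 5 of the 10 fell, where 20.1% of all genes passed and 9.17% rose. Upk3b (limma adjusted p = 0.0177) and Krt7 (0.00737) were among the 5. Markers of 6 other cell types (macrophages, lymphocytes, granulocytes, endothelium, fibroblasts and erythroid cells) were measured as well. Of these 45 markers 0 passed with all arrays, and 7 had an unadjusted p below 0.05 in limma (24.3% of all genes did). Of the 6 fibroblast markers 5 were lower in ascites, with a median change of -0.86, and 1 of these, Col1a2, was at 0.00. Without FBS replicate 3, 4 of the 6 fell, where 20.1% of all genes passed and 9.17% rose. These 4 were Col1a1 (-1.70, limma adjusted p = 0.00791), Col3a1 (-1.76, 0.00737), Pdgfra (-1.02, 0.0456) and Dcn (-1.46, 0.0288). With all arrays Col1a1 changed by -1.44 (limma adjusted p = 0.0683), and it passed under quantile normalisation (0.0415), centring (0.041) and the filter on dim genes (0.0477). The lymphocyte marker Cd2, dim on these arrays, rose without FBS replicate 3 (0.26, limma adjusted p = 0.0482). The brightest marker of each list, namely Cd14, Cd4, Elane, Kdr, Dcn and Epor, changed by 0.38, -0.05, -0.01, 0.03, -0.96 and -0.14.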

How the data were processed

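Total RNA of ID8 cells was measured on 3 FBS and 2 ascites arrays. Per the submitters' processing notes, Affymetrix Expression Console was used; version and algorithm: not given in the sources used here. As deposited, values span a range typical of log2 signals and were used with no further normalization. Of 22690 probe sets, 20393 were annotated to 1 gene and 691 to several. limma 3.58.1 in R 4.3.3 (lmFit, eBayes, two-sided, no covariate) was fitted to 12394 genes, 1 probe set per gene by highest mean, with 3 residual degrees of freedom and a Benjamini-Hochberg threshold of 0.05 over all genes. Pairs of enzymes were compared with exact permutation tests. The number of arrays limits the precision.

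The members and lists were chosen with earlier results of these data known, so no list was tested. Every measured member was named. Of each other list up to 3 genes that passed were to be named, or the gene with the smallest p where none passed, and of each marker list the brightest gene. All measured genes of the GCN2 and ATF4 response and its related kinases, and Tars2, were named as well. Asns, Qtrt1, Cebpb and the surface markers other than Upk3b were chosen after their values were seen. So were Farsb against Farsa as a pair, and Col1a1, Col1a2, Col3a1, Pdgfra and Cd2. Promoter windows came from RefSeq tables of GRCm38.p6. Alternatives changed the normalization, centring, filter, probe set rule, variance model, array weights, replicate block and set of arrays. Replicate numbers 2 and 3 occur in both groups.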

Additional observations from a re-analysis of the deposited data

How the results depend on the processing

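The direction of the 11 risen members held under all 13 alternatives, with changes of 0.67 to 1.77. All 11 passed under quantile normalisation, median centring, a filter on the lowest 25% of genes, the mean of probe sets, trended robust variances, array weights and without FBS replicate 3. None passed with the replicate block (adjusted p = 0.267 to 0.275), with FBS replicates 1 and 2 averaged, or without any 1 of the other 4 arrays. In these 6 limma fits, all 11 still had an unadjusted p below 0.05, as did 14 to 17 of the 28 members and 15.3% to 22.2% of all genes. All 6, like the fit without FBS replicate 3, had fewer residual degrees of freedom than the main fit. The block and averaged fits both gave 0 risen cytosolic enzymes, scaffolds, complex members, enzymes outside the complex, other translation genes and ATF4 targets, and 0 members called. The replicate numbers were not shown to pair the arrays (correlations of 0.03 and 0.043 for same-numbered deviations), so that value is only a check on the block.

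Leaving out 1 array gave 0 to 18 members called, with 0 to 13 cytosolic enzymes risen, 0 to 1 fallen, 0 to 1 mitochondrial enzyme called, 0 to 3 scaffolds risen, 0 to 4 complex members, 0 to 9 enzymes outside it, 0 to 21 other translation genes and 0 to 15 ATF4 targets. Array weights, which gave FBS replicate 3 the lowest weight, gave 18 members called, 1 mitochondrial enzyme, 3 scaffolds, 22 translation genes and 17 ATF4 targets. Quantile normalisation gave 4 translation genes, and median centring 6 with 15 ATF4 targets. The genes past the threshold numbered 654 in all, 885 and 991 under these scalings, 2612 with array weights and 2494 without FBS replicate 3.

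The mitochondrial median was 0.02 with quantile normalisation, 0.03 with centring, -0.02 with array weights, -0.01 with the block and -0.07 to -0.01 without 1 array. Hars minus Hars2 ran from -0.32 to 0.12 and Eprs minus Pars2 from 0.95 to 1.31 without 1 array. Changes of genes that never passed turned sign as follows, and the cause was not tested. With centring Fars2 was 0.05, Hars2 0.03, Cd4 0.03 and Elane 0.06, and with quantile normalisation Fars2 was 0.02 and Hars2 0.03. With probe set means Cd4 was 0.02. With array weights Kars was 0.15 and Iars2 0.01. Across the fits without 1 array Hars ran from -0.40 to 0.12, Kars from -0.28 to 0.18, Fars2 from -0.06 to 0.02, Iars2 from -0.15 to 0.02, Eif2ak1 from -0.05 to 0.10, Eif2ak4 from -0.37 to 0.09, Cd4 from -0.20 to 0.10 and Elane from -0.07 to 0.04.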

Other observations

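Genes that modify tRNA were mostly higher in ascites without passing. Of 19 measured, 16 were higher (50.5% of all genes), with a median log2 change of 0.29. In limma 0 passed and 6 had an unadjusted p below 0.05 (24.3% of all genes). Without FBS replicate 3, and also with array weights, 7 of the 19 rose, where 9.17% and 10.0% of all genes did, and 2 rose under quantile normalisation and under centring. Trmt1, which methylates a guanine of tRNA, had the smallest p and changed by 0.68 (SE 0.13, adjusted p = 0.0662). It passed under quantile normalisation (limma adjusted p = 0.046), centring (0.0444), array weights (0.0163) and without FBS replicate 3 (0.0316). The largest change was that of Qtrt1, which exchanges guanine for queuine in the anticodon (0.91, limma adjusted p = 0.0723), and it passed under the same 4 settings (0.0461, 0.0466, 0.0133 and 0.0355). On FBS replicate 3 the list lay above the other FBS arrays by a median of 0.27, as the cytosolic synthetases did.

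The elongation machinery showed smaller changes. Of 6 cytosolic elongation genes 0 passed, 2 had an unadjusted p below 0.05 in limma (24.3% of all genes), and changes ran from -0.05 to 0.25. Eef1b2, an exchange factor of the elongation factor that delivers charged tRNA, had the smallest p (0.25, limma adjusted p = 0.0908). It passed without FBS replicate 3 (0.28, limma adjusted p = 0.0381) and with array weights (0.28, 0.0317). Among 17 initiation genes 15 were higher (50.5% of all genes), with a median of 0.34, and 1 rose (2.69% of all genes). In limma 9 had an unadjusted p below 0.05 (24.3% of all genes). Both ascites arrays lay above all FBS arrays in 11 (18.6% of all genes) and below them in 1 (19.4%). Without FBS replicate 3, 5 of the 17 rose (9.17% of all genes), and with array weights 8 did (10.0%). In selenocysteine tRNA synthesis and decoding, 4 of 5 genes were lower, with Pstk, the kinase of the seryl-tRNA intermediate, at -0.27 (adjusted p = 0.416). Dtd1, which removes D-amino acids from tRNA, changed by 0.48 (limma adjusted p = 0.0823). It passed without FBS replicate 3 (0.57, limma adjusted p = 0.0152) and with array weights (0.56, 0.0131). The mitochondrial recycling factor gene Mrrf changed by -0.41 (limma adjusted p = 0.11).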
